A study of Mus musculus with 15 samples.

Results

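Genes of T cells and cytotoxic lymphocytes were followed in substantia nigra RNA after injection of a virus on 1 side of the brain: Cd3d, Cd3e, Cd3g, Cd4, Cd8a, Cd8b1, Gzma, Gzmb, Nkg7 and Cxcr6. The 10 genes were taken by symbol from 36265 genes with values, with no filter on their level, and each had a value above 0 in at least 1 library of either vector. RNA of 15 libraries came from 8 C57Bl/6J mice, taken 3 weeks after surgery. The injected side received an adeno-associated virus that carried either miR-181, at 1.65e+10 vector genomes (3 injected libraries), or GFP, at 1e+10 vector genomes (4 injected libraries). The untouched opposite side gave 3 libraries in the miR-181 mice and 5 in the GFP mice, of which GFP mouse 5 gave no injected library. Both vectors used the human synapsin promoter, which directs a transgene to neurons, and no library came from a mouse without an injection. Vector cargo, dose, library set, sequencer and read length changed together between the miR-181 and the GFP mice, so their effects on any difference between these mice cannot be told apart. The labels give neither the age nor the sex of the mice.

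T cells recognise antigen through a receptor whose signal is carried by the CD3 chains, and CD4 and CD8 are the coreceptors that divide helper from killer T cells. Killer T cells and natural killer cells hold granules with granzymes, proteases that enter and kill a target cell. The healthy brain holds few such cells, while T cells that enter brain tissue can stay there as resident cells, many of which carry the chemokine receptor CXCR6. miR-181 is itself known in mice for tuning the sensitivity of the receptor in developing T cells. Mature miR-181 is too short to be read in libraries made from mRNA and was not measured here.

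The CD3 genes sit together on chromosome 9 of GRCm38 (GENCODE M21 annotation): Cd3g at 44969572 to 44980431 on the minus strand, Cd3d at 44981786 to 44987339 on the plus strand, and Cd3e at 44998740 to 45009627 on the minus strand. The starts of Cd3d and Cd3g lie 1355 bases apart and face away from each other. The CD8 genes are neighbours on the plus strand of chromosome 6, with Cd8b1 at 71322788 to 71337494 and Cd8a at 71373427 to 71379173, and Cd4 lies on the minus strand of the same chromosome at 124864692 to 124888221. Gzma (chromosome 13, 113093825 to 113100981) and Gzmb (chromosome 14, 56258838 to 56262260) are on minus strands, and Nkg7 (chromosome 7, 43437073 to 43438249) and Cxcr6 (chromosome 9, 123806475 to 123811760) on plus strands. All 10 are annotated as protein coding. Exons of Cd3e share 135 bases with the antisense gene Gm48719, and Cxcr6 lies inside Fyco1 on the opposite strand with 0 shared exon bases; the kit kept strand, while its use in the authors' counting is not given in the sources used here.

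Promoter sequence was available for 8 of the 10 genes as the 250 bases before and 50 after the RefSeq start (GRCm38.p6). The promoters of the 4 effector genes are shown because these genes are the cytotoxic and homing genes of the list, and those of Cd3d and Cd3g because this divergent pair had unlike values in the GFP mice. Capitals mark matches, on either strand, to 4 short motifs: TGTGGT or ACCACA (bound by RUNX factors), AGGAAG or CTTCCT (ETS factors), CAGCTG (an E-box) and TCACAC or GTGTGA (T-box factors such as T-bet and Eomes). The sequences run 5′ to 3′ along the strand of the gene: Gzma at chr13:113100932-113101231 (minus), Gzmb at chr14:56262285-56262584 (minus), Nkg7 at chr7:43436888-43437187 (plus), Cxcr6 at chr9:123806227-123806526 (plus), Cd3d at chr9:44981536-44981835 (plus) and Cd3g at chr9:44980382-44980681 (minus).
Gzma promoter: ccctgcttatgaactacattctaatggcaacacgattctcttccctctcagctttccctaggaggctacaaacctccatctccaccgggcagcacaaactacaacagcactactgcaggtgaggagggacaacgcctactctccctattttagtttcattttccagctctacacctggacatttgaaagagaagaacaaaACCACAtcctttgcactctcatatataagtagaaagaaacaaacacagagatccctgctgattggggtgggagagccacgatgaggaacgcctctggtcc
Gzmb promoter: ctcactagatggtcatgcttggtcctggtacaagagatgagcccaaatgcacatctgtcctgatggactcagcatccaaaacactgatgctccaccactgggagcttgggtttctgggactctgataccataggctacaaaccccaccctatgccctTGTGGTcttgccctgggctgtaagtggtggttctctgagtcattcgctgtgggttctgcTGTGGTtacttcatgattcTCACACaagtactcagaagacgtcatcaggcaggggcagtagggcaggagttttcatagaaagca
Nkg7 promoter: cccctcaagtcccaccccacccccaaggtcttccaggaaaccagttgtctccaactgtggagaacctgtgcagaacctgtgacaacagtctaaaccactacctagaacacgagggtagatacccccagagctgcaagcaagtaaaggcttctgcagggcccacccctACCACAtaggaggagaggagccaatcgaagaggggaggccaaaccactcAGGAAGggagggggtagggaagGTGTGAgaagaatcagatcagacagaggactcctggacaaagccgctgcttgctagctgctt
Cxcr6 promoter: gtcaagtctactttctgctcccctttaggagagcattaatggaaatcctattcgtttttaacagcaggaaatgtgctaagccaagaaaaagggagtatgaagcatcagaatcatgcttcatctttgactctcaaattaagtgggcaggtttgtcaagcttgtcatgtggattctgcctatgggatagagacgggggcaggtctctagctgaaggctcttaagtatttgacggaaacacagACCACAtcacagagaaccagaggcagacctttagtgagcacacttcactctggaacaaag
Cd3d promoter: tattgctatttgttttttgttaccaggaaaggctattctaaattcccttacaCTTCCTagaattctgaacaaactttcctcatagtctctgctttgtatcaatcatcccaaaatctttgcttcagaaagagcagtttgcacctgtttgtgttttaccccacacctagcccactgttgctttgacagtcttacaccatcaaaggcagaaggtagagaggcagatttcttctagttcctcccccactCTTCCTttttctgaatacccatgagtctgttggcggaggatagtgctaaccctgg
Cd3g promoter: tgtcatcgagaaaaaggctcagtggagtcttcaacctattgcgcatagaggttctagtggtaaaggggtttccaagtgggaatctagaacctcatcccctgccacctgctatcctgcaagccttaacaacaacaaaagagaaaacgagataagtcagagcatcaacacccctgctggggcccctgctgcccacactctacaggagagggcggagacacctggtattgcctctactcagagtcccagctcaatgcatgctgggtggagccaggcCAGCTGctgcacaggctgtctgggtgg
The RUNX letters stand in all 4 effector promoters, with 1 match each in Gzma, Nkg7 and Cxcr6 and 2 in Gzmb, and in 0 of the other 4 promoters. Of 32851 mouse promoters of this length, 16.8% hold them. The ETS letters stand in 3 of 8 promoters (Cd3d and Cd3e with 2 matches each, Nkg7 with 1), against 35.4% of all promoters. The E-box stands in 2 of 8 (Cd8a and Cd3g), against 16.3%, and the T-box letters in 2 of 8 (Gzmb and Nkg7), against 14.5%. None of these matches shared bases in the 8 promoters. A match describes these letters in this window and is not evidence of binding.

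Values are the authors' normalised abundances, read as TPM (a measure of abundance per transcript length) divided by 1 size factor per library, so that levels of different genes can be compared. Sums per library ran from 970505 to 1040288, and 15022 to 15563 genes reached a value of 1. Read depth per library is unknown. The authors' deposited natural log means were read as those of estimated counts and turned back to counts, which gives geometric means over libraries. Summed over genes with statistics, these came to 22107307 in the miR-181 set and 9692792 in the GFP set. A value listed at 0 thus rests on fewer reads, on average, in the GFP libraries. Changes are log2(value + 0.5), injected minus uninjected, tested with limma on genes with a mean of at least 1 and adjusted by Benjamini-Hochberg over all genes tested, and a change passed at an adjusted p under 0.05. On this scale the change of low genes is understated. The tables of the miR-181 and GFP mice were normalized separately, so levels were tested only within a table. Some features of the libraries stood apart from the injection. The injected and uninjected libraries of GFP mouse 1 held pituitary transcripts (summed Prl, Gh and Pomc of 2421 in the injected and 49479 in the uninjected library). Summed serotonin neuron markers were 37.8 to 92.7 in miR-181 libraries, against 0.342 to 1.53 in GFP libraries, with 0 of 3 called between the sides of the miR-181 mice. The dopamine neuron genes that define the dissected region were present in each library (summed Th, Slc6a3 and Slc18a2 from 383 to 1415). In tissue RNA, more cells of a type and more RNA per cell cannot be told apart.

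In the miR-181 mice the genes of the receptor, of CD8 and of the killer granules stood higher on the injected side, with uninjected levels mostly under 1. Cd3e, Cd3g, Cd8a, Cd8b1, Gzmb, Nkg7 and Cxcr6 rose in the filtered fit, by 2.18 to 3.52 log2 units. Each of these 7 passed the filter through the injected side alone. With no filter 0 of the 10 genes were called, and with the filter 0 were called when any 1 uninjected library was left out. Cd3d, Cd4 and Gzma had positive changes that did not pass or could not be tested with the filter.

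**Figure D1:**
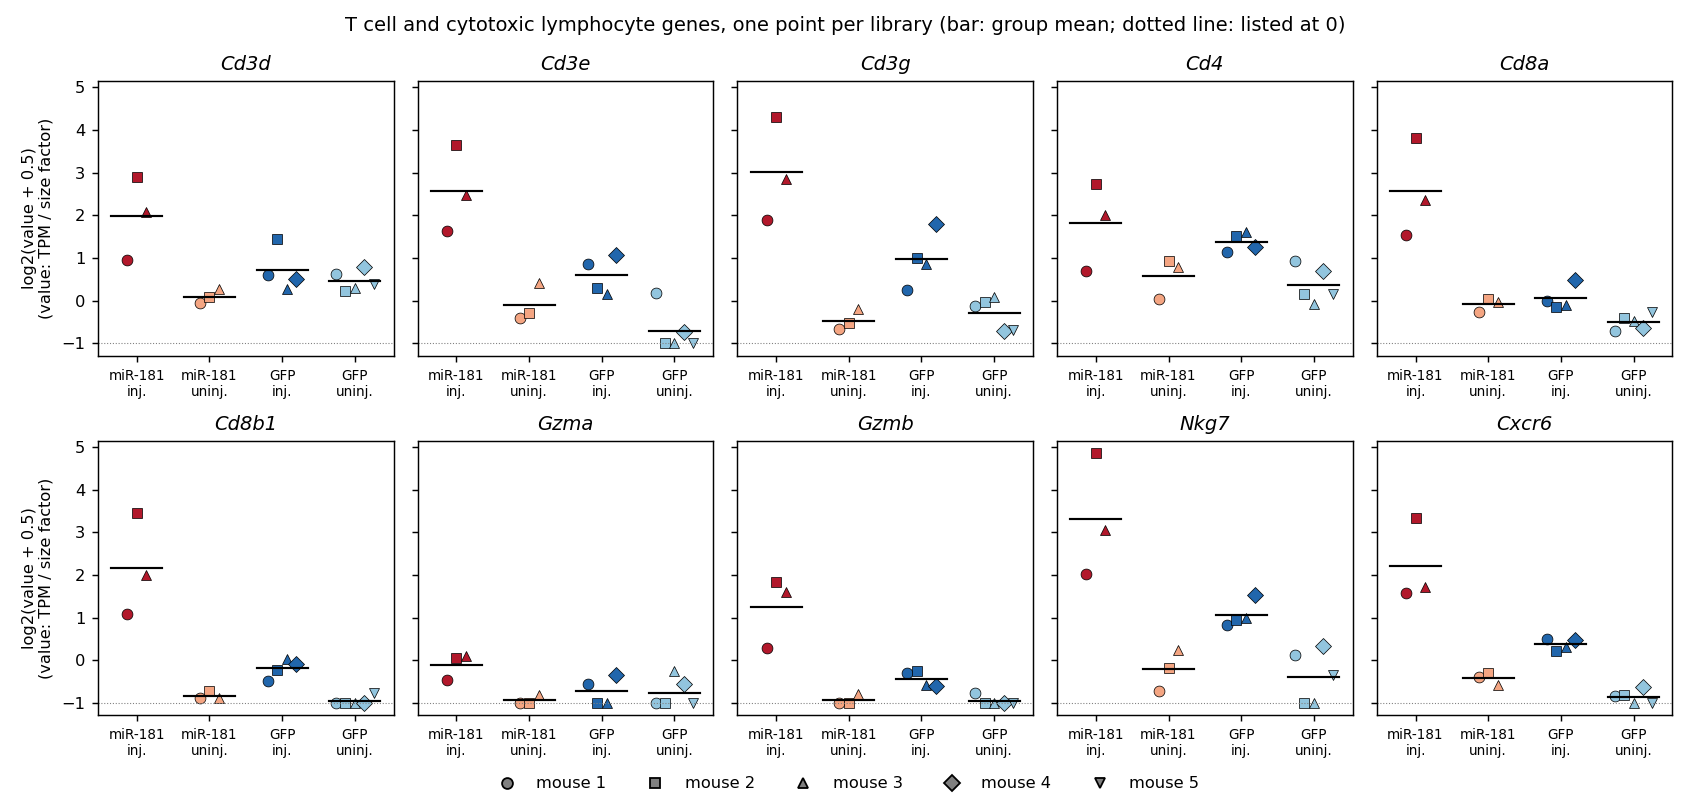
Each panel plots 1 gene, with 1 point per library at log2(value + 0.5) on the y axis (value: TPM divided by a size factor) for injected and uninjected sides of miR-181 and GFP mice; bars are group means, symbols are mice and the dotted line is a value listed at 0. The 3 miR-181 injected libraries lie above the 3 miR-181 uninjected ones in each panel but that of Cd4, with mouse 2 highest for 9 genes, and the GFP points lie closer together.

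The CD3 chains were measured first. Cd3g, the gamma chain of CD3, stood at 3.22, 19.3 and 6.76 in the injected libraries of miR-181 mice 1, 2 and 3, against 0.131, 0.193 and 0.372 in their uninjected libraries. Each injected value was above each uninjected one, with mouse 2 far above the other two. The change was 3.49 ± 0.56 log2 units (SE; limma adjusted p = 0.0208). Cd3e, the epsilon chain, stood at 2.60, 11.97 and 5.05 in injected libraries, against 0.255, 0.324 and 0.838 in uninjected ones. It was also separate between sides in the order mouse 2, mouse 3, mouse 1, and rose by 2.67 ± 0.51 (limma adjusted p = 0.0324). Cd3d, the delta chain, stood at 1.44, 6.99 and 3.75 in injected libraries, against 0.4659, 0.560 and 0.702 in uninjected ones. The sides did not overlap, yet its change of 1.88 ± 0.47 missed the threshold (limma adjusted p = 0.0660).

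Of the coreceptors, both CD8 chains rose and CD4 did not pass. Cd8a, the alpha chain of CD8, stood at 2.40, 13.5 and 4.62 in the injected libraries of mice 1, 2 and 3, against 0.336, 0.524 and 0.474 in uninjected ones. The lowest injected value was well above the highest uninjected one, and the change was 2.66 ± 0.53 (limma adjusted p = 0.0380). Cd8b1, the beta chain, which marks the conventional killer T cell, stood at 1.61, 10.5 and 3.47 in injected libraries, against 0.0435, 0.106 and 0.0389 in uninjected ones. It was close to the floor of detection in each uninjected library and rose by 3.00 ± 0.56 (limma adjusted p = 0.0314). Cd4, the coreceptor of helper T cells, which in rats and people is also made by macrophages, stood at 1.13, 6.14 and 3.52 in injected libraries, against 0.524, 1.40 and 1.23 in uninjected ones. It was the only one of the 10 whose sides overlapped in the miR-181 mice, since injected mouse 1 lay below uninjected mice 2 and 3. Within each mouse the injected side was the higher one, and the change was 1.23 ± 0.52 (limma adjusted p = 0.214).

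The effector genes had the largest and the smallest levels of the 10. Nkg7, a granule protein of natural killer and killer T cells that is needed for granule release, stood at 3.54, 28.5 and 7.78 in injected libraries, against 0.108, 0.390 and 0.690 in uninjected ones. It was the highest of the 10 in each injected library and rose by 3.52 ± 0.68 (limma adjusted p = 0.0338). Gzmb, the protease that starts death of the target cell, stood at 0.732, 3.07 and 2.53 in injected libraries, against 0, 0 and 0.0795 in uninjected ones. It was listed at 0 in 2 of 3 uninjected libraries and rose by 2.18 ± 0.45 (limma adjusted p = 0.0399). Gzma, a second granzyme, stood at 0.232, 0.534 and 0.579 in injected libraries, against 0, 0 and 0.0715 in uninjected ones. It was above each uninjected value in each injected library but never reached 1, and so was left out of the filtered test; with no filter its change was 0.84 ± 0.17 (limma adjusted p = 0.0812). Cxcr6, the receptor for the chemokine CXCL16, stood at 2.49, 9.61 and 2.80 in injected libraries, against 0.257, 0.315 and 0.175 in uninjected ones. Its sides were clearly apart, with mice 1 and 3 close together, and it rose by 2.63 ± 0.47 (limma adjusted p = 0.0265).

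Counted over the list, 7 of the 9 genes that reached a mean of 1 were called higher and 0 lower, where 4.39% of all 15453 genes tested were called higher. Of these 9, 8 reached that mean through the injected side alone, with each uninjected library under 1, so the count by itself does not weigh for a rise. With no filter, 0 of 10 were called (1.06% of 25218 genes were), while 9 had an unadjusted limma p under 0.05. In 9 of 10 the 3 injected libraries lay above the 3 uninjected ones, against 12.1% of all genes. The median change of the 10 was 2.64 log2 units with no filter, beside 0.00 for all genes. The calls rested on few libraries: 0 of 9 genes were called without any 1 of the 3 uninjected libraries, 0 of 8 without injected mouse 3, 6 of 8 without injected mouse 2 and 9 of 9, Cd4 and Cd3d among them, without injected mouse 1. Gzmb did not reach a mean of 1 without injected mouse 2 or 3. With no intensity trend, Cd3g alone was called (limma adjusted p = 0.0483). Over these leave-out fits the adjusted p of Cd3g ran from 0.00298 to 0.0957 and that of Cxcr6 from 0.0129 to 0.105, with changes of at least 2.84 and 2.07. With mouse as a block, 6 were called, and Gzmb was not (limma adjusted p = 0.0516).

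The order of levels on the injected side of the miR-181 mice was Nkg7 (13.3 ± 13.4, mean ± SD, n = 3), Cd3g (9.77 ± 8.46), Cd8a (6.85 ± 5.89), Cd3e (6.54 ± 4.86), Cd8b1 (5.18 ± 4.66), Cxcr6 (4.96 ± 4.02), Cd3d (4.06 ± 2.79), Cd4 (3.60 ± 2.51), Gzmb (2.11 ± 1.23) and Gzma (0.448 ± 0.189). No neighbours in the order from Nkg7 to Gzmb differ by more than the SD of the higher one. The spread between mice ran the same way in most genes. Injected mouse 1 was the lowest of the 3 for 10 of 10 genes, and mouse 2 the highest for 9 of 10, the exception being Gzma, which was highest in mouse 3. The median over the 10 genes was 2.004, 10.03 and 3.63 in injected mice 1, 2 and 3.

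The change within a mouse, computed after the data were seen as a description with no test, had the same order. In each of the 10 genes it was smallest in mouse 1 and largest in mouse 2. Its median over the genes was 1.87, 3.70 and 2.34 log2 units in mice 1, 2 and 3. The largest single change was that of Nkg7 in mouse 2, at 5.03, and the smallest that of Gzma in mouse 1, at 0.55. Where the uninjected side was listed at 0 the size of the change depends on the 0.5 that was added.

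**Figure D2:**
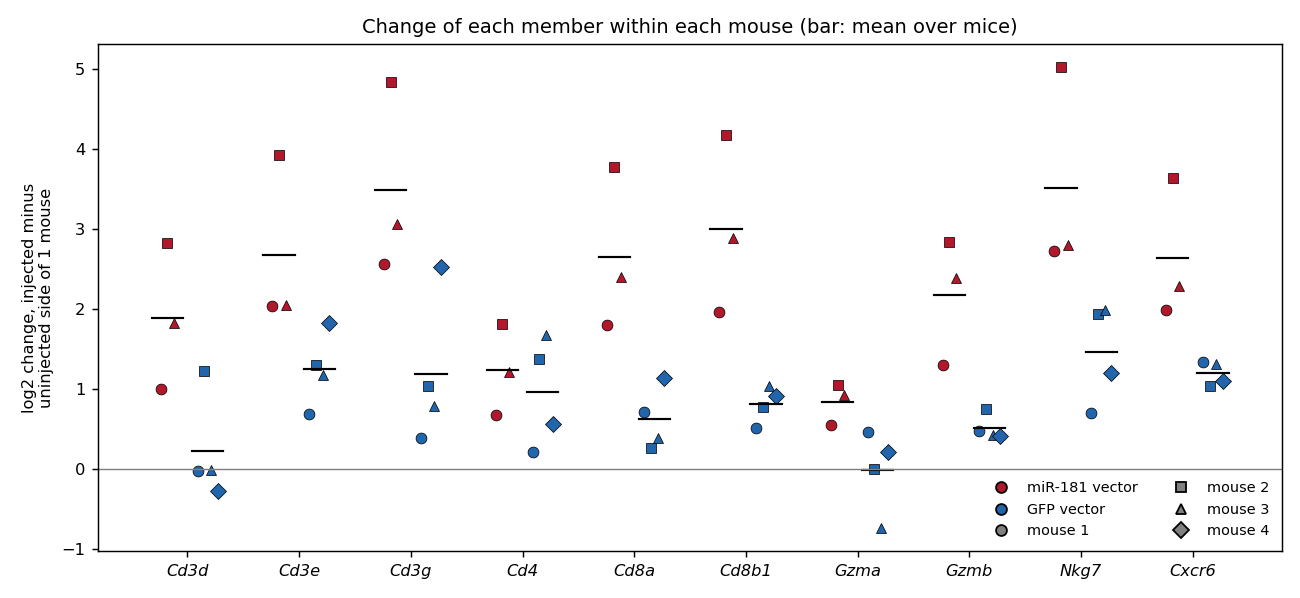
The y axis gives the log2 change, injected minus uninjected side of 1 mouse, from log2(value + 0.5), with genes along the x axis; red points are the 3 miR-181 mice, blue points the 4 GFP mice with both sides, symbols are mouse numbers and bars are means over mice. All red points lie above 0, mouse 2 is the highest red point for each gene, and for 8 of 10 genes each red point lies above each blue one.

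In the GFP mice the same genes were low on both sides and mostly higher on the injected one. Only Cd4 and Cd3d reached a mean of 1 over the 9 libraries, and 0 of these 2 were called, where 1.34% of all genes were called higher; the unadjusted limma p of Cd4 was 0.00226 and that of Cd3d 0.396. With no filter 2 of 10 were called higher, Cxcr6 and Cd8b1 (0.714% of 24930 genes were), and 8 had an unadjusted p under 0.05. In 7 of 10 the 4 injected libraries lay above the 5 uninjected ones, against 2.52% of all genes. The median change was 0.88 log2 units, beside 0.00 for all genes. Without both libraries of GFP mouse 1, which held pituitary transcripts, Cxcr6 and Cd8b1 were again called with no filter (limma adjusted p = 0.0230 and 0.0363), with changes of 1.19 and 0.85.

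Among the CD3 genes, Cd3g stood at 0.699, 1.52, 1.33 and 3.00 in the injected libraries of GFP mice 1 to 4, against 0.417, 0.486, 0.558, 0.110 and 0.120 in uninjected mice 1 to 5. The sides did not overlap, mouse 4 being the highest on the injected side. With no filter the change was 1.28 ± 0.31 (limma adjusted p = 0.168). Cd3e stood at 1.32, 0.730, 0.6245 and 1.62 in injected libraries, against 0.634, 0, 0, 0.1005 and 0 in uninjected ones. Uninjected mouse 1 lay just above injected mouse 3, and the change was 1.32 ± 0.30 (limma adjusted p = 0.123 with no filter; 0.0241 without that uninjected library). Cd3d stood at 1.02, 2.22, 0.717 and 0.923 in injected libraries, against 1.05, 0.664, 0.734, 1.23 and 0.815 in uninjected ones. It overlapped fully between sides, with injected mouse 2 alone above the uninjected range, and its change was 0.24 ± 0.27 (limma adjusted p = 0.827).

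Cd4 had the highest mean of the 10 on the injected side of the GFP mice, where it stood at 1.71, 2.36, 2.54 and 1.88, against 1.41, 0.607, 0.455, 1.12 and 0.624 in uninjected libraries. The sides did not overlap, though injected and uninjected mouse 1 were close. The change was 1.01 ± 0.25 (limma adjusted p = 0.114), and it passed only without uninjected mouse 1 (0.0486; range over the fits that left out libraries 0.0486 to 0.295). Cd8a stood at 0.494, 0.406, 0.432 and 0.905 in injected libraries, against 0.108, 0.259, 0.214, 0.140 and 0.331 in uninjected ones. All injected values were above all uninjected ones but under 1, and with no filter the change was 0.56 ± 0.16 (limma adjusted p = 0.269). Cd8b1 stood at 0.215, 0.357, 0.523 and 0.439 in injected libraries, against 0, 0, 0, 0 and 0.0864 in uninjected ones. It was listed at 0 in 4 of 5 uninjected libraries, and it rose by 0.76 ± 0.12 with no filter (limma adjusted p = 0.0225), a call kept in 5 of 10 fits that left out libraries (0.0130 to 0.0818). It was lost when mouse 2 or 4 was left out on either side, or mouse 3 on the uninjected side.

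Cxcr6 was the most uniform of the 10 in the GFP mice, at 0.918, 0.669, 0.735 and 0.892 in injected libraries, against 0.0616, 0.0699, 0, 0.1504 and 0 in uninjected ones. The 4 mice were within a narrow range on the injected side, far above the uninjected one. It rose by 1.23 ± 0.12 with no filter (limma adjusted p = 0.00357) and was called in 10 of 10 fits that left out libraries (0.00573 to 0.0230). Nkg7 stood at 1.27, 1.41, 1.48 and 2.38 in injected libraries, against 0.588, 0, 0, 0.752 and 0.285 in uninjected ones. Its sides were apart, and its change of 1.45 ± 0.32 did not pass (limma adjusted p = 0.109 with no filter). Gzmb stood at 0.313, 0.342, 0.167 and 0.162 in injected libraries, against 0.0838, 0, 0, 0 and 0 in uninjected ones. All of these are low, the injected ones being the higher, and the change of 0.52 ± 0.10 did not pass (limma adjusted p = 0.0633 with no filter). Gzma stood at 0.186, 0, 0 and 0.289 in injected libraries, against 0, 0, 0.336, 0.183 and 0 in uninjected ones. It was the only one of the 10 that was listed at 0 on both sides of the GFP mice and overlapped throughout (0.04 ± 0.21, limma adjusted p = 0.968 with no filter).

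By their medians over the 10 genes, the mice of the GFP set were more alike than those of the miR-181 set. The GFP values were low, where changes on the scale used are understated. Gzma varied more, relative to its mean, on the injected side of the GFP mice (0.119 ± 0.143, mean ± SD) than of the miR-181 mice (0.448 ± 0.189). The median level over the 10 genes was 0.809, 0.700, 0.671 and 0.914 in injected mice 1 to 4, and the median change within a mouse was 0.50, 1.03, 0.91 and 1.00. No GFP mouse was highest or lowest throughout, with mouse 4 the highest on the injected side for 5 genes and mouse 1 the lowest for 4. In order of mean level the injected side held Cd4 (2.13 ± 0.389, mean ± SD, n = 4), Cd3g (1.64 ± 0.977), Nkg7 (1.63 ± 0.502), Cd3d (1.22 ± 0.678), Cd3e (1.07 ± 0.475), Cxcr6 (0.804 ± 0.121), Cd8a (0.559 ± 0.233), Cd8b1 (0.384 ± 0.132), Gzmb (0.246 ± 0.0947) and, last, Gzma. From Cd4 to Cxcr6 no neighbours in this order were apart by more than the larger of their SDs, while Cxcr6 and Cd8a, and Cd8b1 and Gzmb, were apart by more than either SD.

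The changes of the miR-181 mice were then set against those of the GFP mice by fitting the change per mouse, 3 mice against 4. The mean of 1 was reached by 8 genes, and 0 of 8 were called, where 0.00647% of all genes, that is 1 of 15451, were called higher. Of the 8, 7 had an unadjusted limma p under 0.05, as did 15.3% of all genes. This count by itself does not weigh for a difference, since the filter favoured genes high in the injected miR-181 libraries. Cd8a, Cd8b1 and Cxcr6 were under 1 in each library outside that group, and without miR-181 mouse 2 only 5 genes were tested. The difference was 2.30 ± 0.67 log2 units for Cd3g (SE; limma adjusted p = 0.186), 2.20 ± 0.58 for Cd8b1 (0.159), 2.06 ± 0.62 for Nkg7 (0.197) and 2.03 ± 0.53 for Cd8a (0.154). It was 1.66 ± 0.53 for Cd3d (limma adjusted p = 0.213), 1.44 ± 0.47 for Cxcr6 (0.222) and 1.43 ± 0.55 for Cd3e (0.279). Cd4 had the smallest, at 0.28 ± 0.45 (limma adjusted p = 0.820), and stood at -0.01 without miR-181 mouse 2. With no filter all 10 differences were positive, with a median of 1.66 beside 0.01 for all genes, and 0 of 10 were called, where 0% of 26710 genes were. In 8 of 10 genes each miR-181 mouse had a larger change than each GFP mouse, against 5.31% of all genes; the exceptions were Cd3d and Cd4. The larger changes of the miR-181 mice were thus a direction without a call, in which vector cargo, dose and library set cannot be told apart.

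The balance of CD8 and CD4 transcripts within a library was described by the ratio of Cd8a to Cd4, which is free of the scaling of that library and was computed after the data were seen. It was 2.13, 2.20 and 1.31 in injected libraries of miR-181 mice 1, 2 and 3, against 0.642, 0.375 and 0.385 in their uninjected libraries. Cd8a exceeded Cd4 in each injected library of the miR-181 mice and in none of the other 12 libraries. In the GFP mice the ratio was 0.288, 0.172, 0.170 and 0.480 in injected libraries 1 to 4, against 0.0764, 0.427, 0.471, 0.125 and 0.531 in uninjected libraries 1 to 5. The sides of the GFP mice overlapped. The CD8 chains kept close to each other on the injected side of the miR-181 mice, where the ratio of Cd8b1 to Cd8a was 0.670, 0.772 and 0.752, against 0.129, 0.202 and 0.0821 on the uninjected side. In the injected libraries of the GFP mice it was 0.434, 0.880, 1.21 and 0.486, against 0.261 in uninjected mouse 5 and a Cd8b1 listed at 0 in the other 4 uninjected libraries. The ratio of Gzmb to Cd8a was 0.305, 0.227 and 0.548 in injected libraries of miR-181 mice, against 0, 0 and 0.168 in uninjected ones, so that these sides did not overlap. In the GFP mice it was 0.633, 0.842, 0.386 and 0.179 in injected libraries, against 0.776 in uninjected mouse 1 and a Gzmb listed at 0 in the other 4 uninjected libraries. No uninjected library held Gzmb above 0.0838, so its ratios on that side rest on very low values.

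**Figure D3:**
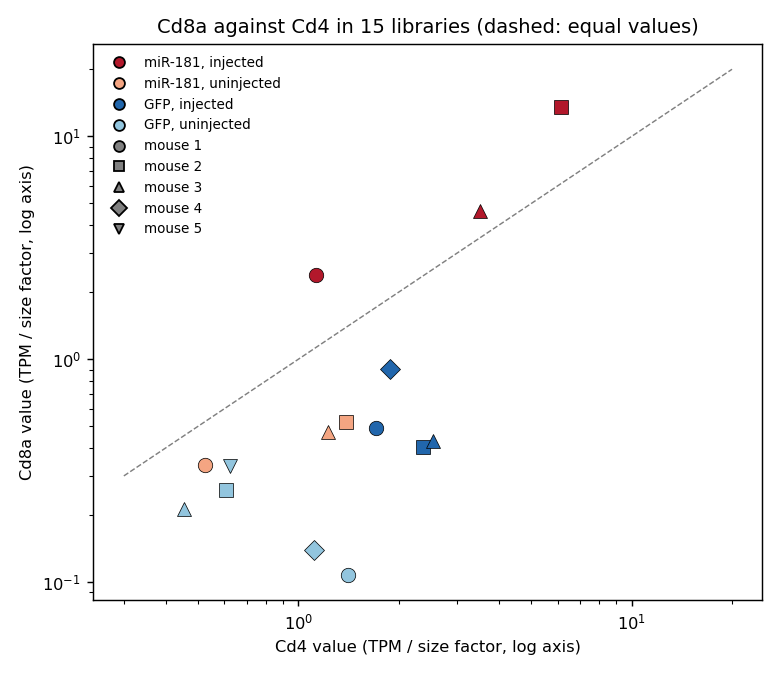
Cd8a (y axis) is plotted against Cd4 (x axis) for 15 libraries, both on log axes in TPM divided by a size factor; the dashed line marks equal values, colours are groups and symbols mice. The 3 injected miR-181 libraries lie above the line and the other 12 below it. As plotted, the GFP injected libraries hold Cd4 levels between those of injected miR-181 mice 1 and 3, but less Cd8a than either. Levels of the miR-181 and GFP libraries were normalized separately and were not tested against each other.

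Other T cell genes moved with the CD3 and CD8 genes. Of 19 further T cell symbols, 15 identifiers reached a mean of 1 in the miR-181 mice, 6 were higher and 0 lower, where 4.39% of all genes were higher, with a median change of 1.996 beside 0.00 for all genes. Of these 6, 5 reached that mean through the injected side alone, and with no filter 1 of 20 identifiers, Trbc1, was called (limma adjusted p = 0.0312; 1.06% of all genes were higher). Trbc1, a constant region of the receptor beta chain, stood at 3.91, 10.4 and 4.14 in injected libraries, against 0.128, 0 and 0.314 in uninjected ones, and rose by 3.26 ± 0.40 (limma adjusted p = 0.00888). Pdcd1, which encodes the inhibitory receptor PD-1, stood at 1.64, 7.44 and 3.03 in injected libraries, against 0.0947, 0.155 and 0.0571 in uninjected ones, and rose by 2.70 ± 0.47 (limma adjusted p = 0.0246). Lat, an adaptor below the receptor, rose by 2.23 ± 0.43 (0.0334), the CD3 zeta chain gene Cd247 by 2.19 ± 0.47 (0.0458), the adhesion molecule gene Cd2 by 2.46 ± 0.53 (0.0447) and the receptor alpha constant gene Trac by 1.35 ± 0.28 (limma adjusted p = 0.0408). Trac stood at 22.0, 41.5 and 24.7 in injected libraries, against 11.4, 13.996 and 7.85 in uninjected ones, so that, unlike the CD3 genes, it was well above 1 on both sides. In the fits that left out 1 library of the miR-181 mice, Trbc1 was called in 4 of 6 and Lat in 2 of 6 (without injected mouse 1 or 2). Trac, Cd247 and Cd2 were called in 1 of 6 and Pdcd1 in 1 of the 5 fits that tested it, each without injected mouse 1. With mouse as a block, Lat and Cd2 were not called (limma adjusted p = 0.0578 and 0.0519).

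On the sides of the GFP mice, 8 identifiers of the same list reached a mean of 1, and 1 was higher, where 1.34% of all genes were, with a median change of 0.53. With no filter 4 of 21 were called higher in these mice (0.714% of all genes were): Trbc2, Ctla4, which encodes an inhibitory receptor (0.90, limma adjusted p = 0.0127), the surface receptor gene Cd6 (1.10, 0.0227) and Cd2 (1.38, 0.0484). The larger number of calls was thus in the miR-181 mice with the filter and in the GFP mice without it. The gene called in the GFP mice with the filter was Trbc2, the other beta constant region, at 6.86, 6.50, 6.53 and 6.43 in injected libraries, against 1.61, 2.06, 2.50, 3.72 and 1.96 in uninjected ones. The 4 injected values lay almost on top of each other, above all 5 uninjected ones. Trbc2 rose by 1.34 ± 0.18 (limma adjusted p = 0.00623) and was called in each of 10 fits that left out libraries of the GFP set, but not with mouse as a block (0.0540). In the miR-181 mice the same gene stood at 6.06, 37.8 and 13.1 in injected libraries, against 2.86, 2.29 and 2.19 in uninjected ones, a change of 2.36 ± 0.57 that did not pass (limma adjusted p = 0.0616). Trbc1 was above 0 in the 4 injected GFP libraries, at 1.78, 0.309, 1.09 and 2.73, and was listed at 0 in the 5 uninjected ones.

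Of 15 further cytotoxic and natural killer cell genes, 5 reached a mean of 1 in the miR-181 mice, and 2 were higher, where 4.39% of all genes were, with a median change of 1.87. Of the 5 tested, 3 had each uninjected library under 1, as had 1 of the 2 called, Xcl1. The count by itself thus does not weigh for a rise. Xcl1, a chemokine that draws cross-presenting dendritic cells, stood at 2.49, 6.11 and 1.76 in injected libraries, against 0, 0.262 and 0.145 in uninjected ones, and rose by 2.50 ± 0.43 (limma adjusted p = 0.0243). Ctsw, a cathepsin of cytotoxic cells, stood at 3.08, 10.4 and 4.602 in injected libraries, against 0.574, 1.04 and 0.599 in uninjected ones, and rose by 2.26 ± 0.41 (limma adjusted p = 0.0284). Gzmk, a granzyme of memory-like killer cells, had 0.955, 3.94 and 2.17 in injected libraries, against 0.294, 0.201 and 0.141 in uninjected ones, and just missed (1.87 ± 0.42, limma adjusted p = 0.0518). Xcl1 was called in 2 of the 5 fits without single libraries that tested it (without injected mouse 1 or 3), and Ctsw in 2 of 6 (without injected mouse 1 or 2). With no filter 0 of 15 genes of this list were called in the miR-181 mice (limma adjusted p = 0.0589 for Xcl1 and 0.0730 for Ctsw). Between the sides of the GFP mice 2 genes of the list reached the mean and 0 were called; Ctsw had an unadjusted limma p of 0.00264 and an adjusted p of 0.126. With no filter 1 of 14 was called higher in the GFP mice, Xcl1 (1.19, limma adjusted p = 0.0313).

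The partners of Cxcr6 were in the list of residency and homing genes. In the miR-181 mice 7 of 10 reached a mean of 1 and 4 were higher, where 4.39% of all genes were, with a median change of 0.69. Of the 7 tested, 3 had each uninjected library under 1, as had 2 of the 4 called, Cxcr3 and Cd69. This count by itself therefore does not weigh for a rise. With no filter 2 of 10 were called, Cxcl16 among them (limma adjusted p = 0.0379). Cxcl16, the ligand of CXCR6, stood at 12.05, 31.0 and 20.3 in injected libraries, against 2.48, 1.60 and 3.34 in uninjected ones, and rose by 2.81 ± 0.36 (limma adjusted p = 0.0105). Cxcl16 in the GFP mice stood at 7.10, 5.73, 3.47 and 8.93 in injected libraries, against 3.22, 2.06, 2.02, 1.60 and 1.54 in uninjected ones, and rose by 1.36 ± 0.26 (limma adjusted p = 0.0319; 0.0667 without both libraries of mouse 1, 0.0729 with no filter and 0.129 with mouse as a block). Receptor and ligand were both higher on the injected side of both sets. Cxcr3, a receptor for interferon-induced chemokines on activated T cells, stood at 1.26, 6.23 and 3.32 in injected libraries of miR-181 mice, against 0.0712, 0.145 and 0.129 in uninjected ones, and rose by 2.54 ± 0.48 (limma adjusted p = 0.0319). Cd69, an early activation and residency marker, rose by 1.85 ± 0.40 (limma adjusted p = 0.0447, and 0.0502 in the fit blocked by mouse). Of the fits without single libraries that tested them, Cxcr3 was called in 1 of 5 and Cd69 in 1 of 4, both without injected mouse 1, and neither was called with no filter (limma adjusted p = 0.0711 and 0.0760). Of this list 4 genes reached the mean in the GFP mice, and Cxcl16 was the 1 that passed (1.34% of all genes were higher). It was called in 2 of 10 fits that left out libraries of the GFP mice (without injected mouse 3 or uninjected mouse 1), and in 3 of 6 such fits of the miR-181 mice. With no filter 3 of 10 were called higher in the GFP mice, among them Cxcr3 (1.47, limma adjusted p = 0.00620) and the homing receptor gene Ccr7 (0.83, 0.0127). For the difference between the vectors, 0 genes of these 3 lists were called (11, 3 and 5 tested); the smallest unadjusted limma p of the first list was 0.0133, for Pdcd1.

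**Figure D4:**
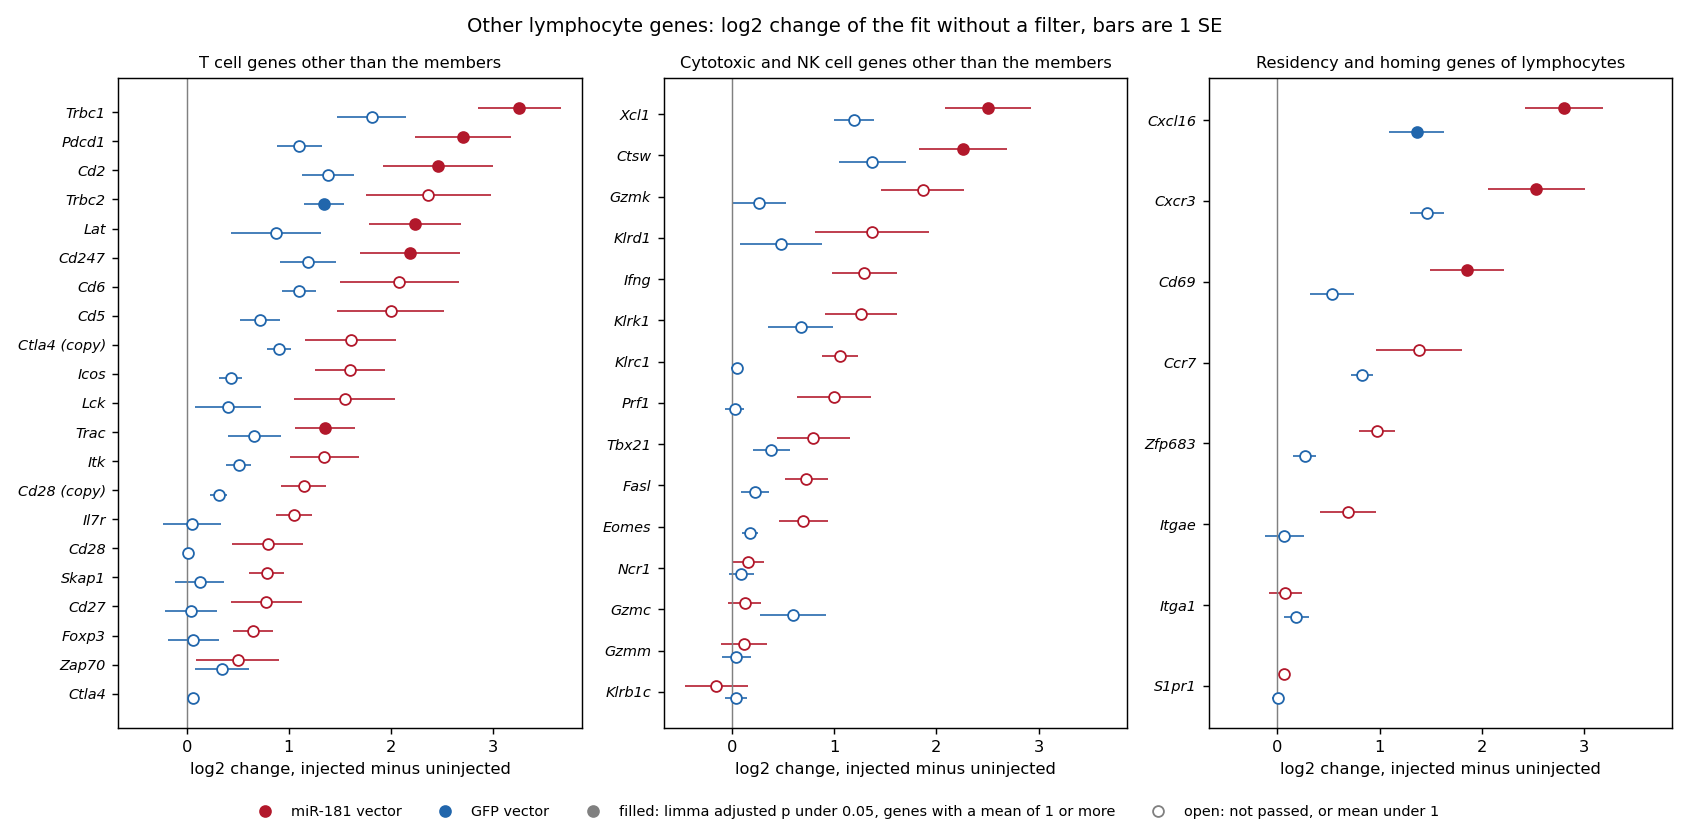
The x axis gives the log2 change, injected minus uninjected, of the fit without a filter, with bars of 1 SE, for genes reported from 3 lists of lymphocyte genes; red is the miR-181 vector, blue the GFP vector, and filled points passed at a limma adjusted p under 0.05 among genes with a mean of 1 or more. Red points lie to the right of blue ones for most genes, 6, 2 and 3 red points and 1, 0 and 1 blue points are filled, "(copy)" marks a second identifier of a symbol, genes listed at 0 in all libraries of a set have no point, and the blue point of Trbc1, listed at 0 in each uninjected GFP library, depends on the 0.5 that was added.

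Markers of other immune cells moved with the same sides, and their part in the lymphocyte values was not tested. Beside the counts below, 4.39% of all genes tested were called higher in the miR-181 mice and 1.34% in the GFP mice. B and plasma cell markers summed to 788 to 4570 in injected miR-181 libraries, against 50.7 to 91.2 in uninjected ones, with 4 of 5 tested genes higher, and to 63.8 to 1403 in injected GFP libraries, against 3.01 to 25.5 in uninjected ones, with 2 of 3 higher. Jchain, the joining chain of secreted antibody, rose by 4.47 ± 0.65 in miR-181 mice (limma adjusted p = 0.0147; called in 3 of 6 fits without single libraries) and by 3.12 ± 0.55 in GFP mice (0.0214; called in 6 of 10 such fits, and 0.1297 with mouse as a block), while the B cell gene Ms4a1 stood between 0 and 0.857 in all libraries. Monocyte markers summed to 9.71 to 57.2 in injected miR-181 libraries, against 1.35 to 2.37 in uninjected ones, with 2 of 2 tested genes higher, and to 3.12 to 12.8 in injected GFP libraries, against 0.853 to 1.44 in uninjected ones, with 0 of 1. Microglia markers summed to 509 to 710 in injected miR-181 libraries, against 289 to 309 in uninjected ones, with 5 of 6 higher, and to 336 to 408 in injected GFP libraries, against 210 to 275 in uninjected ones, with 4 of 6. With no filter, calls in the miR-181 mice were 1 of 7 B and plasma cell, 0 of 4 monocyte and 4 of 6 microglia markers. In the GFP mice they were 0 of 7, 1 of 4 and 4 of 6. The shares of all genes called higher with no filter were 1.06% and 0.714%. Each of the 2 monocyte calls in the miR-181 mice held in 1 of 6 fits without single libraries. In these mice 2 of the 4 B and plasma cell calls and 1 of the 2 monocyte calls had each uninjected library under 1. Such genes passed the filter through the injected side alone, so those counts by themselves do not weigh for a rise.

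Neutrophil markers were near the floor, at 0 to 1.61 summed in all libraries, and none reached a mean of 1. Red blood cell genes summed to 675 to 1175 in injected miR-181 libraries, against 710 to 1166 in uninjected ones, and to 711 to 981 in injected GFP libraries, against 642 to 913 in uninjected ones. The ranges overlapped, while within mice the injected side held the larger sum in 2 of 3 miR-181 mice and in 4 of 4 GFP mice (1.01 to 1.11 times the uninjected side in the GFP mice). Of the 4 red blood cell genes tested with limma in either set, 0 were called and 0 had an unadjusted p under 0.05; with mouse as a block 0 were called, and Hba-a2, a near-identical copy of Hba-a1, had in the GFP mice an unadjusted p of 0.00116 (limma adjusted p = 0.0860). Dopamine neuron markers summed to 383 to 907 in injected miR-181 libraries, against 603 to 901 in uninjected ones, and injected mouse 2, which was highest for the lymphocyte genes, held the lowest sum. The injected side held the larger sum in 2 of 3 miR-181 mice (0.434 to 1.01 times the uninjected side) and in 3 of 4 GFP mice (0.941 to 1.34 times). Of the 3 genes, 0 were called in either set, and a link to the lymphocyte genes was not tested.

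The genes most like the 10 in pattern were also sought. Likeness was the Pearson correlation over 15 libraries between a gene and the mean of the 10 genes, each as log2(value + 0.5) less the mean of its own set, over 14822 genes with a mean of at least 1 in each set. It is given as a description, since the libraries share sides, mice and a sequencing set. The 6 most alike were Shisa5 (0.977), Lcp2 (0.976), Ifi30 (0.975), Ncf1 (0.974), Ly6e (0.974) and Apobec3 (0.974). Lcp2 encodes SLP-76, an adaptor below the T cell receptor that myeloid cells also use, Ncf1 a subunit of the phagocyte oxidase and Ifi30 a lysosomal reductase of antigen presenting cells. All 6 were called higher in both sets, with changes from 1.21 (Shisa5, limma adjusted p = 0.0435) to 2.14 (Ifi30, 0.0212) in miR-181 mice and from 0.38 (Shisa5, 0.00482) to 1.01 (Ifi30, 0.0174) in GFP mice. Of all genes tested, 4.39% were called higher in the miR-181 mice and 1.34% in the GFP mice. The 6 were picked for following the 10 genes over the same libraries, so their calls were largely set by that choice. In the 6 fits without single miR-181 libraries these calls held in 1 fit for Shisa5 and in 2 for each of the others. In the 10 fits that left out libraries of the GFP set they held in 10 for Shisa5 and Ncf1, 6 for Apobec3, 5 for Lcp2 and Ifi30 and 3 for Ly6e, with the highest limma adjusted p at 0.0781, for Lcp2 without both libraries of mouse 1. With mouse as a block, Shisa5 and Lcp2 were not called in the GFP mice (0.0545 and 0.143). Among the 10 themselves, the correlation of a gene with the mean of the other 9 was 0.951 to 0.975 for Cd3e, Cd3g, Cd8a, Cd8b1, Gzmb, Nkg7 and Cxcr6, and 0.900 for Cd3d, 0.850 for Cd4 and 0.709 for Gzma.

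The authors' deposited table of the miR-181 mice holds statistics for 9 of the 10 genes, all but Gzma, and that of the GFP mice for Cd3d and Cd4. The natural log means of the authors' deposited table, turned back to estimated counts per library, are geometric means over both sides and describe neither side alone. They ran from 4.10 for Cd3d to 81.9 for Cd8a in the miR-181 set. In the GFP set they were 1.69 for Cd3d and 8.57 for Cd4. The second of the 2 tests in the authors' deposited table put the same 7 genes under a q of 0.05 in the miR-181 mice, from 0.0148 for Cd8b1 to 0.0385 for Nkg7, with Cd3d at 0.0628 and Cd4 at 0.263. The first test in the authors' deposited table also had Cd3d under it (q = 0.00691). For Cd4 in the GFP mice the authors' deposited table has a q of 0.0440 in the first test and 0.119 in the second.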

How the data were processed

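Substantia nigra mRNA was sequenced with a kit that keeps strand, per the labels' protocols, and quantified with kallisto 0.43.1 and sleuth 0.30.0 on GRCm38, per the submitters' processing notes. The deposited signal of each library was taken to be TPM over a size factor of that library, because sums differ between libraries; the planned test assumed TPM and was kept. The authors' deposited p-values and q-values come from 2 tests that the file headers do not name. The authors' deposited means, on a natural log scale, were read as those of estimated counts. Other deposited statistics (variances, test scores) were not used. Of 36660 genes with values, 395 that repeated a symbol with identical values were left out.

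Values were tested with limma 3.58.1 in R 4.3.3 as log2(value + 0.5) with an intensity trend. The method was also run on simulated data, with changes only in well expressed genes and the same small spread for all genes. That run does not cover genes as low as most of the 10 on the uninjected side. The labels give the injected and uninjected side of each animal, which pairs the libraries; deviations from group means correlated between sides at 0.140 to 0.257 in miR-181 mice, against 0.0177 to 0.192 in GFP mice. The block was an alternative, as were other pseudocounts, filters and scalings, no trend, and fits without libraries. Python 3.11.15, numpy 2.4.6, pandas 2.3.3 and matplotlib 3.10.9 were also used. The 10 genes, the lists and the motifs were chosen with earlier results of these data known. The text names the 3 genes of each list with the smallest p in each set, and Cd2, Cd69, Ms4a1, Hba-a2, Ifng, Prf1, Foxp3, Trdc and the list genes called with no filter, chosen after their values were seen; some genes that these choices would name are not reported here, although the list counts include them.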

Additional observations from a re-analysis of the deposited data

Results flagged for a closer look

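In 3 of the 20 groups of GFP libraries examined for the 10 genes, the highest library stood far from the others. Chance picks about 1 in 20 groups of continuous values in this way. That rate does not carry over to these 3 groups, since 4 of 5 libraries are listed at 0 in 2 of them and 3 of 5 in that of Cd3e. All 3 are on the uninjected side. Cd3e was 0.634 in GFP uninjected mouse 1, where the nearest library had 0.1005. Gzmb was 0.0838 in the same library and was listed at 0 in the other 4. Cd8b1 was 0.0864 in GFP uninjected mouse 5 and was listed at 0 in the other 4. The uninjected library of mouse 1 is also the one with the most pituitary transcripts, a summed Prl, Gh and Pomc of 49479. The part of these transcripts in the Cd3e and Gzmb values was not tested. Without this library Cd3e was called in the GFP mice with no filter (1.54 ± 0.22, limma adjusted p = 0.0241), and Gzmb was not (0.57 ± 0.10, limma adjusted p = 0.0584). Groups of 3 libraries, as in the miR-181 mice, were not examined in this way.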

How the results depend on the processing

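In the miR-181 mice the 7 called genes of the 10 became 0 with no filter and 1 with no intensity trend (Cd3g), 5 with a pseudocount of 1 or quantile normalization, 6 with mouse as a block, and 0 to 9 when single libraries were left out. The 908 genes called in all became 315 with no filter, 449 with no trend and 117 to 1924 without single libraries; median centring moved the share of calls that were higher to 57.5%, against 74.7%, and called the same number of the 10 genes, 7. With the block, 718 genes were called, of which 626 were among the 908. In the GFP mice the 0 called genes of the 10 became 2 with no filter, 1 with a filter of 0.2, 0 to 1 without single libraries, and, with no filter and without libraries, 1 to 3 (2 without both libraries of mouse 1). The 206 genes called in all became 135 with the replicate block, of which 115 were among the 206, and 108 to 255 without single libraries. The block also drops uninjected mouse 5, which has no injected side; without that library and without the block, 108 were called. For the difference 1 gene was called, with 0 under no filter, 3 with no trend and 0 to 306 without single mice, while 0 of the 10 genes were called under each alternative run. Directions of the 10 genes held in all fits but 8: Cd4 in the difference without miR-181 mouse 2 (-0.011; 0.56 without miR-181 mouse 1), and Gzma in the GFP mice with no filter, at -0.078 without both libraries of mouse 1, -0.019 without mouse 1 on either side or uninjected mouse 2 or 5, and -0.086 without injected mouse 4 (0.17 at the highest), and Cd3d in the GFP mice with no filter without injected mouse 2 (-0.0023). The causes were not tested. Read depth per library is unknown, and most uninjected values of the 10 genes lie below 1, where a log2 change depends on the pseudocount.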

Other observations

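Some lymphocyte genes with low levels add to the account above. Ifng, which encodes the cytokine interferon gamma, stood at 0.420, 1.63 and 0.540 in injected libraries of miR-181 mice 1, 2 and 3, against 0.0536, 0 and 0 in uninjected ones, and was listed at 0 in all 9 GFP libraries. Its change in the miR-181 mice with no filter was 1.29 ± 0.32 log2 units and did not pass (limma adjusted p = 0.120). Prf1, which encodes the pore protein of killer granules, stood at 0.166, 1.34 and 0.463 in injected libraries of the same mice, against 0.0927, 0 and 0 in uninjected ones. It did not pass either (1.00 ± 0.36, limma adjusted p = 0.247 with no filter), and in the GFP libraries it lay between 0 and 0.118 on both sides. Foxp3, the factor that defines regulatory T cells, stood at 1.04, 1.78 and 1.60 in injected libraries of miR-181 mice, against 0.790, 0.789 and 0.647 in uninjected ones. The sides did not overlap and the change was small (0.65 ± 0.25, limma adjusted p = 0.175). Trdc, the constant region of the delta chain and the 1 gene with values among 4 of gamma-delta T cells, stood at 0.108, 0.379 and 0.225 in injected miR-181 libraries, against 0.188, 0.0654 and 0.386 in uninjected ones, so that the sides overlapped fully.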
